A study of Mus musculus with 10 samples.

Results

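The antibody genes described here are 10 mouse genes that make, assemble or carry secreted antibody in the colon. They are the heavy chain constant regions Igha, Ighm, Ighd, Ighg1, Ighg2b, Ighg2c and Ighg3, the kappa light chain constant region Igkc, the joining chain Jchain and the polymeric immunoglobulin receptor Pigr. They were chosen by gene symbol, and all 10 were found among the 56691 genes of the deposited table. Bulk RNA of the colon was sequenced in 10 mice, 5 given DSS only (DSS-1 to DSS-5) and 5 given DSS and ceAF (ceAF-1 to ceAF-5). All were male C57/BL6 mice, 8 weeks old, and both groups drank 3% DSS (dextran sulfate sodium, which injures the colon epithelium) for 7 days. After those 7 days, the ceAF group was also given chick early amniotic fluid by gavage at 15 mL/kg for 10 days. By the study scheme, mice of the DSS group were gavaged with water over the same period, and both groups were sampled on the same day. The written methods state neither the water gavage nor the shared sampling day. Each numbered library is taken as 1 mouse, which the labels do not state outright.

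Plasma cells of the gut lining secrete mostly IgA, whose heavy chain constant region is encoded by Igha. A heavy chain pairs with a kappa or lambda light chain, and the small J chain protein joins IgA or IgM units into polymers. The receptor encoded by Pigr, made by epithelial cells, takes up J chain-bearing antibody at the basal surface, carries it across the cell and releases it into the lumen with a piece of the receptor attached. Class switching replaces the constant region next to the rearranged variable gene, so that a naive B cell with IgM and IgD becomes a cell with IgG, IgE or IgA. On chromosome 12 the deposited table lists the constant regions in the order Ighm, Ighd, Ighg3, Ighg1, Ighg2b, Ighg2c and Igha on the minus strand, with Igkc on chromosome 6, Jchain on chromosome 5 and Pigr on chromosome 1.

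Total counts on genes lay between 16275884 and 19901549 in DSS mice and between 14676471 and 18811795 in ceAF mice. Against these similar depths, the share of counts on the 394 immunoglobulin rows of the table, among which Jchain is counted, varied widely. It was 0.619% in DSS-1 (95% Wilson interval 0.615 to 0.623, covering counting error only), 0.418% in DSS-2 (0.415 to 0.421), 0.365% in DSS-3 (0.363 to 0.368), 0.459% in DSS-4 (0.456 to 0.462) and 0.202% in DSS-5 (0.200 to 0.204). In the ceAF group it was 0.0429% in ceAF-1 (0.0418 to 0.0439), 0.390% in ceAF-2 (0.387 to 0.393), 0.414% in ceAF-3 (0.411 to 0.417), 0.191% in ceAF-4 (0.189 to 0.193) and 0.380% in ceAF-5 (0.377 to 0.383). DSS-1 had the highest normalized level of all 10 mice for 9 of the 9 members other than Pigr, and ceAF-1 had the lowest for 7 of those 9, with ceAF-4 lowest for Ighm and Ighd. Some group differences given below change without 1 of these 2 libraries, others more without another mouse. The choice to leave single mice out of the gene lists was made after seeing the data. In the first principal component of all tested genes, which held 30.8% of the variance, ceAF-1 stood at 93.5 against −45.5 to 16.0 for the other 9 mice.

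The share of counts on mitochondrial genes also differed between libraries. It was 5.34% in DSS-1 (95% Wilson interval 5.33 to 5.36), 5.34% in DSS-2 (5.33 to 5.35), 5.45% in DSS-3 (5.44 to 5.46), 6.54% in DSS-4 (6.53 to 6.56) and 5.06% in DSS-5 (5.05 to 5.07). It was 9.66% in ceAF-1 (9.64 to 9.67), 5.64% in ceAF-2 (5.63 to 5.65), 4.53% in ceAF-3 (4.52 to 4.54), 7.24% in ceAF-4 (7.225 to 7.25) and 9.74% in ceAF-5 (9.725 to 9.75). Of the 3 highest, ceAF-1 and ceAF-4 had the lowest immunoglobulin shares, whereas ceAF-5 did not. Its part in the antibody differences was not tested.

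Across the whole table, edgeR's quasi-likelihood test on 16545 genes called 0 genes between ceAF and DSS at an adjusted p under 0.05 with an absolute log2 fold change of 1 or more (0% called). The smallest adjusted p in that edgeR fit was 0.656. At an unadjusted p under 0.05, 1146 genes passed (6.93%), of which 607 were lower in ceAF (3.67% of genes tested). DESeq2 called 26 genes on the same counts. Of the 10 antibody genes, 0 were called by either tool and 1, Ighg2c, had an unadjusted p under 0.05. All 10 had a lower estimate in ceAF, although Ighd turned higher without DSS-1 and Pigr without DSS-5 or ceAF-1. Their median log2 difference was −0.61, beside a median of 0.01 and 48.6% of genes lower over all genes tested. For 0 of the 10 were the 2 groups free of overlap, a property that 205 of the genes tested had (1.24%).

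**Figure D1:**
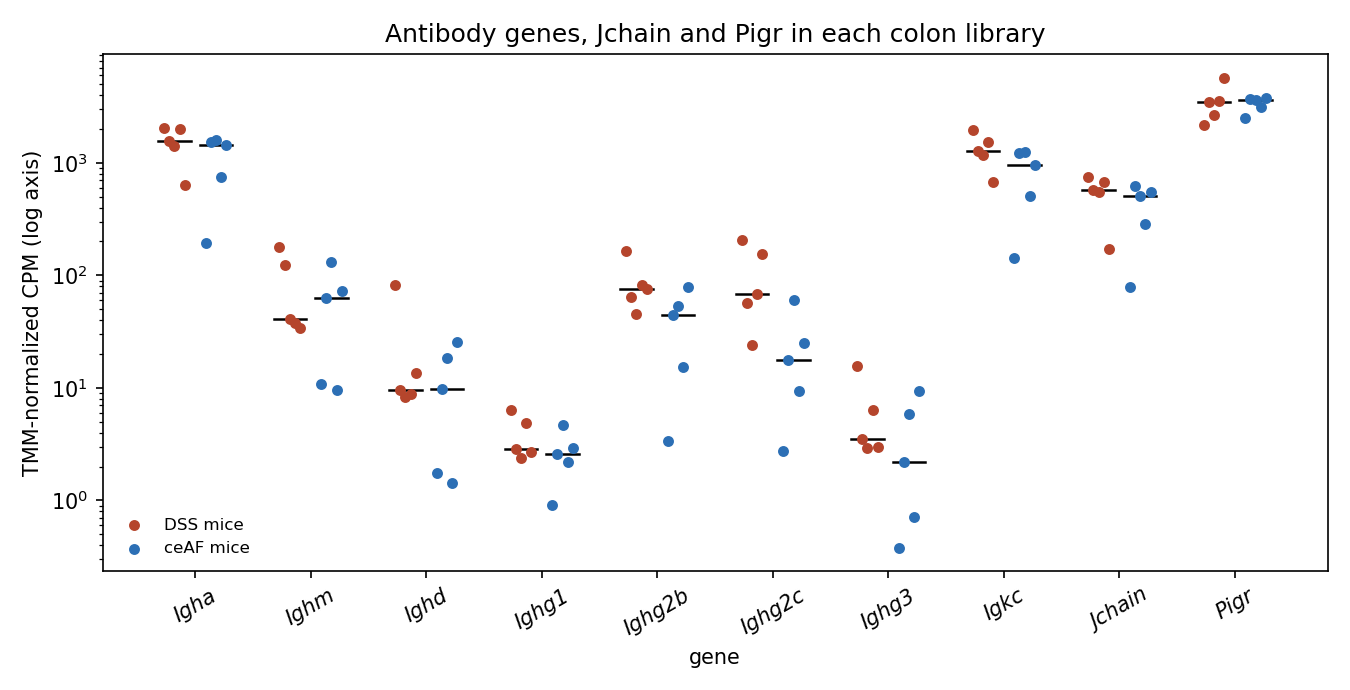
TMM-normalized CPM of the 10 genes in each mouse, on a log axis, with 5 DSS mice (red) and 5 ceAF mice (blue) per gene and black lines at the group medians. The groups overlapped for all 10 genes, and ceAF-1 was the lowest point for 7 of them, at 193 CPM for Igha against 749 to 1608 in the other ceAF mice.

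Compared per length, as FPKM (the count scaled by exonic length and library total), the mean over the 10 mice was highest for Igkc at 2021 and next for Pigr at 851, Igha at 495 and Jchain at 190.0. The exonic length covers all forms of a gene. For Igha it is 2668 bases, whereas its secreted transcript in GENCODE M21 has 1100. For Pigr the 2 lengths are close, at 4025 bases and 3849 in its longest transcript. The place of Igha below Pigr therefore depends on the length used. Ighg2c followed at 47.9, Ighm at 37.6, Ighg2b at 23.9 and Ighd at 9.64, and Ighg3 at 2.03 and Ighg1 at 1.26 were the lowest. The order within a mouse was the same in 10 of 10 mice for Igha over Jchain, for Ighg2b over Ighd and for Ighd over Ighg3. It was less steady elsewhere: Igkc exceeded Pigr in 8 of 10 mice, Ighm exceeded Ighg2b in 7 of 10, and Ighg2c exceeded Ighm in 4 of 10 although its mean was higher. The 10 genes thus ranged from the abundant Igkc and Pigr to IgG subclasses with few counts, Ighg1 with 12 to 110 counts per mouse and Ighg3 with 5 to 272.

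Igha (ENSMUSG00000095079), the constant region of IgA, was the leading heavy chain in every mouse. In the DSS group its CPM (TMM-normalized counts scaled to a common library size) was 2028, 1569, 1421, 1978 and 631 in DSS-1 to DSS-5. In the ceAF group it was 193, 1528, 1608, 749 and 1439 in ceAF-1 to ceAF-5. DSS-5, ceAF-4 and above all ceAF-1 lay below the other 7 libraries, and the groups overlapped. The difference of ceAF from DSS was −0.47 on the log2 scale (SE 0.49), with an adjusted p of 0.897 in edgeR's test. With single mice left out it ranged from −0.65 without DSS-5 to −0.20 without ceAF-1. In bulk tissue, fewer plasma cells and less antibody RNA per cell cannot be told apart.

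Igkc (ENSMUSG00000076609), the kappa constant region that most mouse antibodies carry, followed Igha from mouse to mouse. Its CPM was 1955, 1265, 1163, 1540 and 680 in DSS-1 to DSS-5. It was 144, 1220, 1251, 511 and 960 in ceAF-1 to ceAF-5, and all 5 ceAF values lay below the DSS median of 1265. The log2 difference was −0.69 (SE 0.49; edgeR adjusted p = 0.812), and with single mice left out it ranged from −0.89 without ceAF-3 to −0.42 without ceAF-1. Over the 10 mice Igkc and Igha had a Pearson r of 0.981 (permutation p = 6e-05, adjusted over 8 relations 0.00016) and a Spearman rho of 0.964 (p = 3e-05, adjusted 0.00024). Without ceAF-1 and ceAF-4, the pair farthest from the median, r was 0.917, and with each group centred on its own mean it was 0.988. The log2 ratio of Igkc FPKM to the summed heavy chain FPKM was 1.71, 1.71, 1.87, 1.76 and 1.64 in the DSS mice and 1.71, 1.83, 1.65, 1.68 and 1.49 in the ceAF mice. Its means, 1.74 ± 0.09 and 1.67 ± 0.13 (SD, n = 5 each), did not separate the groups (exact permutation p = 0.357, adjusted over 8 ratios 0.571). The difference of −0.07 ranged from −0.11 without ceAF-2 to −0.02 without ceAF-5.

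The lambda constant regions were a small part of the light chains. Igkc made up 97.5% ± 0.2 of the summed FPKM of Igkc, Iglc1, Iglc2 and Iglc3 in DSS mice and 96.0% ± 1.9 in ceAF mice (SD, n = 5 each). Within the ceAF group, ceAF-1 at 93.8% and ceAF-5 at 93.9% lay below the other 3 mice, which were at 97.3% to 97.4%. Those 2 mice differ in how they reach the same share: Iglc1 had its highest FPKM of all mice in ceAF-5, at 80.5, whereas in ceAF-1 it was at its lowest, 9.91, beside an Igkc FPKM of only 242. Iglc4 had 0 counts in all 10 mice, and Ighe, the constant region of IgE, had 0 to 8 counts per mouse.

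Jchain (ENSMUSG00000067149), made by plasma cells for the polymers that Pigr carries, was close to Igha in its pattern. Its CPM was 750 in DSS-1, 569 in DSS-2, 545 in DSS-3, 676 in DSS-4 and 173 in DSS-5. It was 79.2, 624, 503, 285 and 547 in ceAF-1 to ceAF-5. The low libraries were again DSS-5, ceAF-4 and ceAF-1. The log2 difference was −0.41 (SE 0.50; edgeR adjusted p = 0.916), and with single mice left out it ranged from −0.62 without DSS-5 to −0.15 without ceAF-1. Pearson's r of Jchain with Igha was 0.985 (permutation p = 3e-05, adjusted 0.00012) and Spearman's rho was 0.867 (p = 0.00222, adjusted 0.00355), with an r of 0.964 without DSS-5 and ceAF-1. Relative to Igha, the log2 FPKM ratio was −1.46 ± 0.19 in DSS and −1.33 ± 0.16 in ceAF (SD, n = 5 each; exact permutation p = 0.286, adjusted over 8 ratios 0.571). DSS-5 had the lowest ratio of the DSS group, −1.78 against −1.47 to −1.30 in the other 4 mice. The difference of 0.13 was 0.048 without DSS-5 and 0.197 without ceAF-3, the ends of its range with single mice left out.

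J chain binds the tail that ends the secreted heavy chains of IgA and IgM and that IgG lacks. The last 60 coding bases of the secreted transcripts of Igha, Ighm and Ighg2c, read 5′ to 3′ from GENCODE M21 on GRCm38, are shown to place the members that can enter a J chain polymer beside the IgG subclass that differed most. Each stretch lies in coding sequence, on the minus strand, at chr12:113258771-113258830 for Igha, chr12:113420870-113420929 for Ighm and chr12:113287392-113287451 for Ighg2c. Capitals mark cysteine codons in frame.
Igha: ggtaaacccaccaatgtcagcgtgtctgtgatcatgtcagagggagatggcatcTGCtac
Ighm: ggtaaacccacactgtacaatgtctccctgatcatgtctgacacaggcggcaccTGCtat
Ighg2c: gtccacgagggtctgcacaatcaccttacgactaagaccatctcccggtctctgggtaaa
Igha and Ighm both have a cysteine codon next to last, and Ighd, Ighg1, Ighg2b, Ighg2c and Ighg3 have 0 cysteine codons in the last 20 codons of their secreted forms. The counts do not separate secreted from membrane transcripts of a gene.

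Ighm, the constant region of IgM, and Ighd, that of IgD, are expressed together by naive B cells, and Ighm also by IgM plasma cells. Ighm CPM was 179, 123, 41.1, 37.6 and 34.1 in DSS mice 1 to 5 and 10.8, 62.4, 132, 9.67 and 72.2 in ceAF mice 1 to 5. Ighd CPM was 81.7 in DSS-1 and 8.26 to 13.7 in DSS-2 to DSS-5, and 1.76, 9.76, 18.5, 1.43 and 25.5 in ceAF-1 to ceAF-5. Both genes were low in ceAF-1 and ceAF-4 and otherwise overlapped between the groups, whose Ighd medians were 9.64 and 9.76. The log2 difference was −0.53 (SE 0.73) for Ighm and −1.10 (SE 0.88) for Ighd, with adjusted p of 0.924 and 0.846 in edgeR's test. The estimate for Ighd rested on DSS-1, and without that mouse it was 0.18, while that for Ighm was −0.03. The Ighm estimate was −1.08 without ceAF-3, the other end of its range with single mice left out, and that for Ighd was −1.63 without ceAF-5.

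The B cell markers moved with Ighd. All 15 of the 15 B cell markers tested had a lower estimate in ceAF, with a median log2 difference of −0.65, and 0 had an unadjusted p under 0.05. This direction rested on DSS-1: without that mouse 14 of the 15 were higher in ceAF and 1 lower, with a median of 0.52. Without ceAF-5 15 were lower, with a median of −1.10. Their most abundant gene, Cd79a, a signalling chain of the B cell receptor, had a mean FPKM of 9.26. Summed over the list, the CPM was 384 in DSS-1 and 55.1 to 71.3 in the other DSS mice, and 16.4, 67.3, 127, 22.6 and 179 in ceAF-1 to ceAF-5. The marker score of a mouse, the mean log2 CPM of the list relative to all mice, had a Pearson r with Ighd of 0.979 (permutation p = 1e-05, the smallest that 100000 permutations can give; adjusted 8e-05) and a Spearman rho of 0.952 (p = 0.00011, adjusted 0.000293). Without DSS-1 and ceAF-1 that r was 0.949. With Ighm the r was 0.889 (permutation p = 0.00077, adjusted 0.00123) and rho was 0.867 (p = 0.00198, adjusted 0.00355), and r was 0.809 without those 2 mice. With Igha it was lower, at 0.721 (permutation p = 0.0173, adjusted 0.0230) with a rho of 0.636 (p = 0.0547, adjusted 0.0730), and it rested on DSS-1 and ceAF-1, without which it was 0.445. The part of B cell content in the Ighd and Ighm differences was not tested.

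The IgG subclasses mark plasma cells that are sparse in the resting colon. Ighg2c (ENSMUSG00000076612), the subclass that C57BL mice carry in place of Ighg2a, had a CPM of 208, 56.9, 24.3, 67.9 and 155 in DSS-1 to DSS-5. In ceAF-1 to ceAF-5 its CPM was 2.75, 17.8, 59.9, 9.37 and 25.2. All 5 ceAF values lay below the DSS median of 67.9, but ceAF-3 and ceAF-5 lay above DSS-3, so the groups overlapped. The log2 difference was −2.15 (SE 0.75), the farthest from 0 of the 10 genes. In edgeR's test its unadjusted p was 0.0156 and its adjusted p was 0.656, and the exact two-sided permutation test of log2 CPM gave p = 0.0397. It therefore failed the adjustment over all genes. The estimate lay between −2.87 and −1.71 over all alternatives tried.

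Ighg2b CPM was 165, 64.7, 45.6, 82.8 and 76.4 in DSS mice 1 to 5 and 3.36, 44.5, 53.1, 15.5 and 79.4 in ceAF mice 1 to 5. Of the ceAF values, 4 lay below the DSS median of 76.4, and the groups overlapped. The log2 difference was −1.15 (SE 0.64; edgeR adjusted p = 0.755), and with single mice left out it ranged from −1.58 without ceAF-5 to −0.77 without DSS-1. Ighg3 and Ighg1 had few counts, with CPM of 2.93 to 15.8 and 2.40 to 6.38 in DSS and 0.382 to 9.46 and 0.916 to 4.72 in ceAF. Their log2 differences were −0.75 (SE 0.78) and −0.51 (SE 0.41), and without DSS-1 they were −0.07 and −0.24. At the other end of the leave-outs, Ighg3 was −1.45 without ceAF-5 and Ighg1 −0.80 without ceAF-3. The split of reads among the IgG genes may be uncertain where the subclasses share sequence, and reads matching several genes were not measured. Of the 1276 windows of 50 bases in the Ighg2c transcripts of GENCODE M21, 70 (5.49%) also occur in Ighg2b. Of the 2628 in Ighg2b, 109 (4.15%) occur in another IgG gene. Igha, Ighm, Ighd, Igkc, Jchain and Pigr share 0 such windows with the other members.

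Isotype shares do not depend on the scaling of the libraries, because each gene is set against the summed FPKM of the 7 heavy chain constant regions of the same mouse. The IgA share was 67.5%, 80.8%, 89.3%, 87.0% and 57.7% in DSS-1 to DSS-5. It was 87.3%, 89.1%, 80.2%, 93.4% and 83.7% in ceAF-1 to ceAF-5. IgA was thus the main isotype in all 10 mice, including ceAF-1, where the antibody RNA was lowest, and the lowest shares were those of DSS-5 and DSS-1. The means were 76.5% ± 13.5 in DSS and 86.7% ± 5.1 in ceAF (SD, n = 5 each), a difference of 10.3 percentage points that did not pass the exact permutation test (p = 0.175, adjusted over 8 ratios 0.571). DSS-5 weighed most on it, and without that mouse the difference was 5.58 points, while without DSS-3 it was 13.5. From raw counts in place of FPKM it was 7.44 points.

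The IgG share, summed over the 4 subclasses, was 20.2%, 9.56%, 6.27%, 10.2% and 36.1% in DSS-1 to DSS-5. It was 4.63%, 4.97%, 9.20%, 4.65% and 8.31% in ceAF-1 to ceAF-5. All 5 ceAF mice lay below the DSS median of 10.2%, and DSS-3 lay among the ceAF mice. The means were 16.5% ± 12.2 and 6.35% ± 2.2 (SD, n = 5 each), a difference of −10.1 percentage points with an exact permutation p of 0.0397, which failed the adjustment over 8 ratios (0.317). DSS-5 weighed most on its size, and without that mouse the difference was −5.19 percentage points (exact permutation p = 0.0556). Leaving out any 1 ceAF mouse kept the difference between −10.8 and −9.67 points but gave an exact permutation p of 0.0952 to 0.167, whereas without DSS-1, DSS-2, DSS-3 or DSS-4 the exact p stayed under 0.05. From raw counts the difference was −7.05 points (exact permutation p = 0.0476). In DSS-5 Ighg2c alone held 28.6% of the heavy chain FPKM, beside 3.07% to 13.9% in DSS-1 to DSS-4 and 2.09% to 6.02% in the ceAF mice. FPKM weighs Ighg2c up, since its exonic length in the table is 1326 bases against 2678 for Ighg2b: of the heavy chain counts it held 17.0% in DSS-5 (95% Wilson interval 16.4 to 17.6) and 7.74% in DSS-1 (7.50 to 7.99). Within IgG, by FPKM, Ighg2c made up 63.6% ± 11.3 in DSS and 49.5% ± 11.4 in ceAF, and Ighg2b 32.5% ± 9.8 and 42.0% ± 11.7 (SD, n = 5 each; not tested). By counts Ighg2c made up 47.3% and 33.5% and Ighg2b 47.3% and 55.6%. In ceAF, which of the 2 led thus depended on the unit, whereas in DSS the 2 were level by counts. The secreted transcripts of Ighg2c and Ighg2b in GENCODE M21 are nearly equal in length, at 1111 and 1114 bases. The lead of Ighg2c by FPKM therefore rests on the exonic lengths. For secreted transcripts, counts are the closer comparison of these 2 genes.

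The IgM share was 8.45%, 8.95%, 3.66%, 2.34% and 4.41% in DSS-1 to DSS-5. It was 6.93%, 5.14%, 9.29%, 1.71% and 5.94% in ceAF-1 to ceAF-5. The ranges of the groups overlapped, at 2.34% to 8.95% in DSS and 1.71% to 9.29% in ceAF. The means were 5.56% ± 2.97 and 5.80% ± 2.77 (SD, n = 5 each, with an exact permutation p of 0.889, adjusted over 8 ratios 0.960). The IgD share was between 0.252% and 3.82%, with the highest value in DSS-1.

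**Figure D2:**
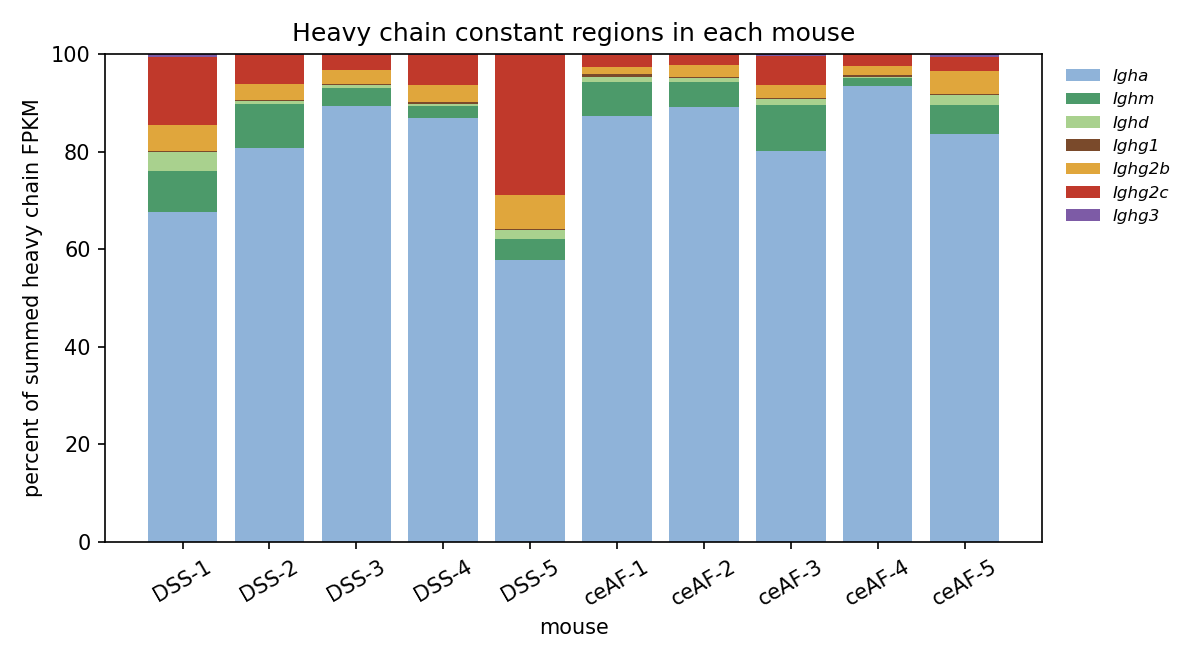
Share of each heavy chain constant region in the summed heavy chain FPKM, in percent, as 1 stacked bar per mouse from 0 to 100%. Igha (pale blue) fills 57.7% to 93.4% of every bar, and Ighg2c (red) is widest in DSS-5, at 28.6%, and in DSS-1, at 13.9%; shares of counts give Ighg2c less weight, as its exonic length is short.

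Markers of plasma cells were set beside the antibody genes. Of 17 plasma cell markers tested, 15 had a lower and 2 a higher estimate in ceAF, with a median log2 difference of −0.48, and 2 had an unadjusted p under 0.05. With single mice left out the median ranged from −0.66 without ceAF-3 to −0.22 without DSS-1, and 1 to 3 had such a p. Derl3, which helps clear misfolded proteins from the endoplasmic reticulum, had an FPKM of 2.58 ± 0.32 in DSS and 1.31 ± 0.66 in ceAF (SD, n = 5 each; log2 difference −0.96, SE 0.35). Slamf7, a surface receptor of plasma cells and other lymphocytes, had 2.05 ± 0.64 and 1.08 ± 0.48 FPKM (log2 difference −0.91, SE 0.35). These 2 had the smallest unadjusted p of the list. Other markers lay near 0: the 2 higher in estimate were Prdm1 (log2 difference 0.04, SE 0.18) and Fkbp11 (0.02, SE 0.34). Among the lower, Sdc1 was at −0.16 (SE 0.21) and Tnfrsf17 at −0.21 (SE 0.43). The most abundant marker, Xbp1, a transcription factor that widens the secretory pathway and that goblet and other epithelial cells also use, had 86.7 ± 30.2 and 72.0 ± 14.4 FPKM. Mzb1, a chaperone of antibody-secreting cells, had a CPM of 0 in ceAF-1 and of 1.68 to 5.85 in the other mice. The score of the list ran from −0.06 in DSS-5 to 0.57 in DSS-1 and from −1.34 in ceAF-1 to 0.30 in ceAF-3.

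The plasma cell score followed Igha over the 10 mice, with a Pearson r of 0.958 (permutation p = 0.00012, adjusted 0.00024) and a Spearman rho of 0.952 (p = 0.00011, adjusted 0.000293), and an r of 0.829 without DSS-1 and ceAF-1. The difference between log2 CPM of Igha and the mean of the markers was 6.35, 6.35, 6.28, 6.49 and 5.30 in DSS mice 1 to 5 and 4.87, 6.39, 6.29, 5.79 and 6.47 in ceAF mice 1 to 5. DSS-5 and ceAF-1 lay below the other 8 mice, which were between 5.79 and 6.49. The groups did not separate on it (means 6.15 ± 0.48 and 5.96 ± 0.66, SD, n = 5 each; exact permutation p = 0.619, adjusted over 8 ratios 0.825). Many of these markers are also expressed by secretory epithelium, so the list does not measure plasma cells alone.

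**Figure D3:**
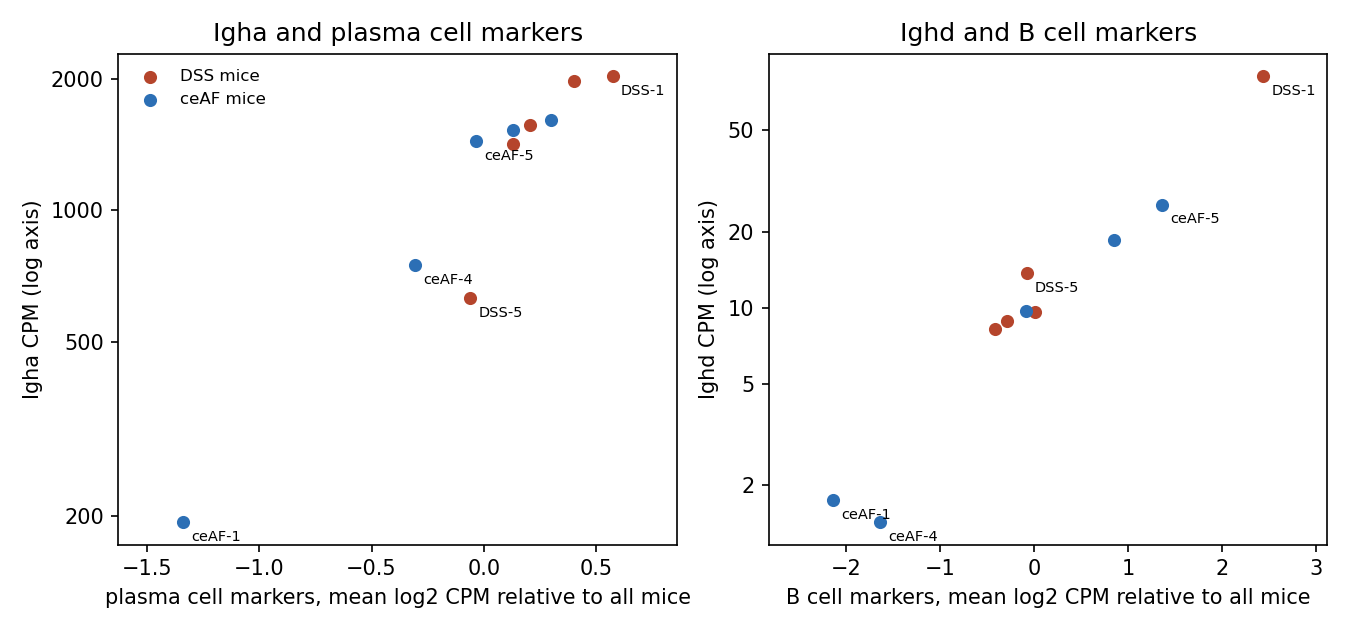
Left, CPM of Igha (log axis) against the plasma cell marker score of each mouse, and right, CPM of Ighd (log axis) against the B cell marker score, where a score is the mean log2 CPM of the list relative to all mice; red points are DSS mice and blue points ceAF mice. DSS-5 has an Igha CPM of 631 at a plasma cell score of −0.06, lower than ceAF-5 at a similar score, and DSS-1 stands apart on the right at a B cell score of 2.43.

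Genes of IgA class switching and plasma cell survival were mostly lower in estimate without passing the adjusted test. Of 18 tested, 15 were lower and 3 higher in ceAF, 3 had an unadjusted p under 0.05, all lower, and the median log2 difference was −0.32. When single mice were left out, 11 to 16 were lower, the median ranged from −0.34 without DSS-2 to −0.11 without DSS-5, and 1 to 5 had such a p. Il21, a T cell cytokine that drives plasma cell differentiation, had an FPKM of 0.37 ± 0.17 in DSS and 0.072 ± 0.065 in ceAF (SD, n = 5 each) from at most 48 counts per mouse. Its log2 difference was −2.26 (SE 0.66; edgeR adjusted p = 0.656). Runx3, a transcription factor that acts downstream of TGF-β in switching to IgA, had 1.41 ± 0.39 and 0.79 ± 0.35 FPKM (log2 difference −0.81, SE 0.30), and Tgfb2, one of the TGF-β ligands, had 1.18 ± 0.66 and 0.68 ± 0.11 (log2 difference −0.77, SE 0.33). Il10 had a log2 difference of −1.03 (SE 0.50), and the most abundant gene of the list, Nos2, the inducible nitric oxide synthase, had 60.7 ± 44.0 FPKM in DSS and 47.0 ± 22.9 in ceAF.

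Plasma cells reach the gut through adhesion molecules and chemokines. Of 10 homing genes tested, 7 were lower and 3 higher, and 2 had an unadjusted p under 0.05. The median log2 difference was −0.45, and with single mice left out it ranged from −0.62 without ceAF-3 to −0.26 without DSS-1. Itgb7, the beta chain of the gut-homing integrin, had a CPM of 21.8, 16.0, 16.3, 16.3 and 7.86 in DSS mice 1 to 5 and 4.35, 10.6, 9.93, 4.18 and 8.85 in ceAF mice 1 to 5. DSS-5 lay among the ceAF mice, and the other 4 DSS mice lay above all of them. The log2 difference of Itgb7 was −1.04 (SE 0.33; edgeR adjusted p = 0.656), and T cells carry this integrin too. Cxcl12, a chemokine of the stroma that retains plasma cells, had 2.76 ± 0.52 and 1.87 ± 0.63 FPKM (log2 difference −0.54, SE 0.23). Ccl28, the chemokine of the colon epithelium that draws IgA plasma cells, had 33.2 ± 19.6 and 39.4 ± 12.8 FPKM (SD, n = 5 each), with a log2 difference of 0.26 (SE 0.35).

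Pigr (ENSMUSG00000026417), the transporter of polymeric IgA, differed from the antibody genes in its pattern. Its CPM was 2154, 3470, 2658, 3512 and 5729 in DSS-1 to DSS-5. In the ceAF group it was 2500, 3672, 3594, 3158 and 3786 in ceAF-1 to ceAF-5. Between its lowest and highest mouse Pigr varied 2.66-fold, whereas the other 9 members varied from 6.96-fold for Ighg1 to 75.7-fold for Ighg2c. The SD of log2 CPM over all mice was 0.39 for Pigr, larger than in 58.2% of genes tested, while that of Igha was 1.04 and larger than in 94.7%. The highest Pigr value was in DSS-5, the mouse with the lowest Igha of its group. The log2 difference of ceAF from DSS was −0.07 (SE 0.25; edgeR adjusted p = 0.978), and its sign turned without DSS-5 (0.20) and without ceAF-1 (0.02).

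Pigr and Igha showed no detectable relation over the 10 mice, with a Pearson r of 0.020 (permutation p = 0.948, adjusted 0.948), a Spearman rho of −0.103 (p = 0.785, adjusted 0.785) and an r of −0.160 without DSS-5 and ceAF-1. The log2 FPKM ratio of Pigr to Igha was −0.51, 0.55, 0.31, 0.23 and 2.59 in DSS mice 1 to 5 and 3.10, 0.67, 0.57, 1.48 and 0.80 in ceAF mice 1 to 5. The highest ratios were in ceAF-1 and DSS-5, where Igha was lowest. The level of the ratio depends on the exonic lengths used, which were the same for every mouse. The mean was 0.64 ± 1.16 in DSS and 1.33 ± 1.06 in ceAF (SD, n = 5 each; exact permutation p = 0.341, adjusted over 8 ratios 0.571). The difference of 0.69 depended on single mice: it was 1.18 without DSS-5 (exact permutation p = 0.0317, unadjusted) and 0.24 without ceAF-1 (exact permutation p = 0.722).

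The epithelium that makes Pigr was present in all libraries. Of 11 epithelial markers, 4 were lower and 7 higher in estimate, with a median log2 difference of 0.07, and 0 had an unadjusted p under 0.05. Leaving out single mice, 1 to 5 were lower, and the median ranged from 0.0022 without DSS-5 to 0.16 without DSS-4. Epcam, an adhesion molecule of all colon epithelium, had 968 ± 141 FPKM in DSS and 931 ± 96.0 in ceAF (SD, n = 5 each). Car1, a carbonic anhydrase of surface colonocytes and the most abundant marker of the list, varied far more, with a CPM of 115 in DSS-5 and 11920 in ceAF-1. The list summed to 13860 CPM in DSS-5, its lowest value, and to 28680 in ceAF-1, its highest, of which Car1 made up 11920. By the score of the list, which weighs its genes equally, DSS-4 was highest at 0.40, ceAF-1 was at 0.12 and DSS-5 was lowest at −0.72. Relative to the mean of these markers, log2 Pigr was 0.94, 1.40, 1.05, 1.19 and 3.01 in DSS mice 1 to 5 and 0.98, 1.55, 1.40, 1.55 and 1.94 in ceAF mice 1 to 5. DSS-5 stood above all others, and the groups did not separate (means 1.52 ± 0.85 and 1.48 ± 0.35, SD, n = 5 each; exact permutation p = 0.960, adjusted over 8 ratios 0.960). Pearson's r of the epithelial score with Pigr was −0.527 (permutation p = 0.127, adjusted 0.145) with a rho of −0.273 (p = 0.448, adjusted 0.512), and without DSS-5 and ceAF-5 it was 0.494, so the negative value rested on those mice.

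Pigr is induced by interferon gamma, tumour necrosis factor, interleukin 1 and bacterial products. Of 20 inducers and regulators tested, 14 were lower and 6 higher in ceAF, 3 had an unadjusted p under 0.05, all lower, and the median log2 difference was −0.11. Between 12 and 16 were lower with single mice left out, the median ranged from −0.15 without DSS-2 to −0.05 without ceAF-5, and 1 (without DSS-1) to 5 (without ceAF-1) had such a p. Ifng had a CPM of 2.26, 3.50, 3.17, 4.74 and 1.08 in DSS mice 1 to 5 and 0.839, 1.69, 0.823, 0.119 and 0.440 in ceAF mice 1 to 5, and only DSS-5 lay within the ceAF range. Its log2 difference was −1.92 (SE 0.56; edgeR adjusted p = 0.656). Il1b had 597 CPM in DSS-1 and 1.68 to 61.1 in the other 9 mice (log2 difference −3.79, SE 1.25). Rela, a subunit of NF-κB, had 15.8 ± 1.9 and 12.4 ± 1.7 FPKM (log2 difference −0.32, SE 0.12), and Ifngr1, a receptor chain for interferon gamma and the most abundant gene of the list, had 146 ± 20.6 and 145 ± 20.4 (SD, n = 5 each). DSS-5 had the lowest Ifng of its group and the highest Pigr.

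The E-box CACGTG, a palindrome that the factors USF1 and USF2 bind, was searched in the 250 bases before the start site. A promoter sequence of RefSeq (GRCm38.p6) matched 2 of the 10 members, Pigr and Jchain. The letters occurred in 6.02% of the 32851 mouse promoters searched, in Pigr and not in Jchain. The Pigr sequence at chr1:130826434-130826683, plus strand, upstream of the gene, is shown because Pigr had the narrowest range of the members; capitals mark the E-box, 65 bases before the start.
Pigr: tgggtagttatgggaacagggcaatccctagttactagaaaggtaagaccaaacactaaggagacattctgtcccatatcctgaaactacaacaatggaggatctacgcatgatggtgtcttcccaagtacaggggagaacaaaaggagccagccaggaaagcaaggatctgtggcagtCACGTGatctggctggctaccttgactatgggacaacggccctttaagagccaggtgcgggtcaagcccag
Usf1 had 15.6 ± 0.8 FPKM in DSS and 13.6 ± 1.7 in ceAF and Usf2 10.3 ± 1.4 and 9.52 ± 0.79 (SD, n = 5 each), with log2 differences of −0.17 (SE 0.13) and −0.09 (SE 0.11). A match of letters is a description and shows no binding.

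The machinery that moves the receptor across the cell showed small differences. Of 11 transcytosis genes tested, 5 were lower and 6 higher in ceAF, with a median log2 difference of 0.06, and 0 had an unadjusted p under 0.05. Across the leave-outs 3 to 5 were lower, and the median ranged from 0.0036 without ceAF-1 to 0.11 without ceAF-5. Rab11a, a small GTPase of recycling endosomes and the most abundant of them, had 67.1 ± 8.1 FPKM in DSS and 62.4 ± 6.2 in ceAF (SD, n = 5 each; log2 difference −0.08, SE 0.11). Yes1, a Src family kinase linked to Pigr transport, had 10.2 ± 1.3 and 11.1 ± 1.6 FPKM (log2 difference 0.15, SE 0.13). Rab3b and Rab11fip5 had log2 differences of 0.40 (SE 0.54) and −0.30 (SE 0.27).

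Receptors that bind antibody on other cells were read beside the isotypes. Of 9 Fc receptor genes tested, 6 were lower and 3 higher in ceAF, and 2 had an unadjusted p under 0.05. Their median log2 difference was −0.60, and with single mice left out it ranged from −0.75 without ceAF-3 to −0.24 without DSS-1, with 1 to 4 at such a p. Fcer1g, the signalling chain shared by several Fc receptors of myeloid cells, had a CPM of 51.4 in DSS-1 and 9.42 to 20.4 in the other DSS mice, and 6.09 to 11.5 in the ceAF mice. Its log2 difference was −1.37 (SE 0.41; edgeR adjusted p = 0.656). Fcgr4, an activating receptor for mouse IgG2 subclasses, had 7.07 ± 3.76 and 3.48 ± 1.78 FPKM (log2 difference −0.98, SE 0.43). Fcgrt, the neonatal receptor that carries IgG across epithelium, had 29.4 ± 3.8 and 25.3 ± 9.9 (SD, n = 5 each), and its partner B2m, the most abundant gene of the list, had 2385 ± 843 and 2309 ± 1287.

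Markers of other cells also differed between libraries. All 8 of 8 T cell markers were lower in ceAF at an unadjusted p under 0.05, beside 3.67% of all genes tested. Their median log2 difference was −1.23, and 7 or 8 of them had such a p with single mice left out. Among them, Cd3e, Cd3d and Cd3g had already been reported by the study as lowered by ceAF in the same sequencing data, so the count is no independent result. The T cell markers were led in level by Trbc2 with a mean FPKM of 16.7. Their summed CPM was 102, 104, 104, 112 and 37.6 in DSS mice 1 to 5 and 37.7, 55.0, 42.9, 23.3 and 29.0 in ceAF mice 1 to 5. Of 6 neutrophil markers 6 were lower and 5 had an unadjusted p under 0.05 (median −3.96), and the 1 without such a p was Ly6g, the most abundant (log2 difference −0.67). The score of the list was 4.90, −0.82, 2.0, −0.48 and 0.64 in DSS mice 1 to 5 and −3.47, −0.98, −0.91, 0.35 and −1.22 in ceAF mice 1 to 5. Without DSS-1 the median was −1.52 and 1 had an unadjusted p under 0.05, while with any other mouse left out 5 had. Of 6 macrophage markers 6 were lower and 2 had an unadjusted p under 0.05 (median −0.54), with C1qa the most abundant and sums of 173 CPM in DSS-1 and 39.0 in ceAF-1. With single mice left out, 0 to 3 of the macrophage markers had such a p, and it was 0 for 6 of the 10 mice. Goblet cell markers were lower in 5 of 6 (median −0.40, and −0.49 to −0.16 with single mice left out; 1 at an unadjusted p under 0.05, and 0 in 6 of the 10 leave-outs), fibroblast markers in 5 of 5 (median −0.37; 0) and smooth muscle markers in 6 of 6 (median −0.19; 0), with Zg16, Dcn and Actg2 the most abundant. Without DSS-1, 2 of the 5 fibroblast markers were lower, and without DSS-5, ceAF-1 or ceAF-3, 3 of the 6 smooth muscle markers. Fibroblast markers summed to 705 CPM in DSS-1 and 97.9 in ceAF-1, so these 2 mice were at the ends of several lists together with the antibody genes. None of these markers was at 0 in all mice, and their part in the antibody differences was not tested.

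Position genes of the colon differed within each group. Hoxb13, a gene of the far end of the colon, had a CPM of 76.3, 95.2, 93.0, 112 and 206 in DSS mice 1 to 5 and 6.18, 215, 149, 10.2 and 185 in ceAF mice 1 to 5. Hoxb6, a more anterior gene of the same cluster, had 1.28, 25.3, 36.6, 22.4 and 0.960 in the DSS mice and 91.0, 0.846, 17.4, 2.98 and 0.880 in the ceAF mice. The 2 mice with the lowest Hoxb13, ceAF-1 and ceAF-4, were those with the lowest Igha, Igkc and Jchain of the ceAF group. DSS-5, with the lowest Igha of the DSS group, had the highest Hoxb13 there. Both genes were chosen after their values were seen, and the part of the sampled stretch of colon in the antibody levels was not tested.

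Among 16440 tested genes outside the immunoglobulin rows, which hold Jchain too, those with a pattern most like Igha were Gm5547, C1qb, C1s1, C1qc and Ocstamp, with Pearson's r of log2 CPM from 0.965 to 0.981 over the 10 mice. C1qb and C1qc encode chains of complement C1q, made by macrophages. C1qb had a CPM of 40.1, 35.5, 32.1, 37.9 and 22.2 in DSS mice 1 to 5 and 10.6, 28.1, 31.0, 22.0 and 29.1 in ceAF mice 1 to 5, with the same low mice as Igha over a narrower range. Those most like Pigr were Fkbp4, Mlec, Frrs1, St13 and Pknox1, with r from 0.959 to 0.968. Fkbp4, a cochaperone of Hsp90, had a CPM of 230 in DSS-5 and of 96.6 to 154 in the other 9 mice. These likenesses describe the same 10 libraries and carry no test.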

How the data were processed

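Reads were trimmed with cutadapt 1.9.1 and aligned with HISAT2 2.2.1, per the submitters' processing notes; the counting program, annotation and genome build are not given in the sources used here. Libraries were made from poly(A) RNA. The authors deposited, for each mouse, the read count of each gene, not normalized, and FPKM. All 566910 FPKM values equalled the deposited count scaled by exonic length and total count, within rounding, so both units come from the same counting. Of the 56691 genes, 2639 had no symbol.

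Counts were filtered with edgeR 4.0.16 (filterByExpr, minimum count 10), scaled by TMM and compared by the two-sided quasi-likelihood test with Benjamini-Hochberg adjustment over 16545 genes, in R 4.3.3; log2 CPM used a prior count of 1. DESeq2 1.42.0 was an alternative. Shares and ratios were compared by exact two-sided permutation over 252 assignments (smallest p 0.00794), and relations by 100000 permutations. Replicate numbers did not pair the mice. The other alternatives were upper quartile scaling, no filter on low counts, immunoglobulin rows left out of library sizes, raw counts for shares, medians over markers, a replicate block and each mouse left out in turn. Leaving mice out of the gene list counts was chosen after seeing the data.

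The members and gene lists were chosen with earlier results of these data known. Genes named from a list were its most abundant tested gene and up to 4 with the smallest unadjusted p; others, such as Hoxb6, Hoxb13, Mzb1, Ccl28, Fcgrt, Usf1 and Usf2, were named after their values were seen or for their role. Other groups of the study were not analysed here.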

Additional observations from a re-analysis of the deposited data

Results flagged for a closer look

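In 46 comparisons of 5 mice of a group, 1 mouse stood far from the other 4 in 7, where chance gives about 1 in 20, or 2.3. The gap to the nearest mouse as a share of the range, against a critical value of 0.71, was 0.780 for Ighd in DSS-1 and 0.849 for the B cell marker score in the same mouse. For DSS-5 it was 0.783 for Jchain, 0.778 for Pigr relative to epithelial markers and 0.825 for Igha relative to plasma cell markers. It was 0.718 for Jchain relative to Igha in ceAF-3, whose log2 ratio was −1.59 against −1.31 to −1.20 in the other ceAF mice. It was 0.908 for the total count of DSS-2, at 19901549.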

How the results depend on the processing

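The count of genes called was 26 by DESeq2 (25 lower; 371 genes had no adjusted p), 275 at an unadjusted p under 0.05 with the fold limit, and 0 to 3 with each mouse left out, where the 3 came without DSS-5; the cause was not tested. Over 15 alternatives, 8 of the 10 members kept a lower estimate and 0 members reached an adjusted p under 0.05. Ighd ranged from −1.63 to 0.18 with mice left out, the latter without DSS-1, and Pigr ranged up to 0.20 with mice left out (−0.20 to 0.20; 0.02 without ceAF-1). With mice left out the difference ranged from −0.63 to 1.26 points for the IgM share, 5.58 to 13.5 for the IgA share, −12.7 to −5.19 for the IgG share, 0.24 (without ceAF-1) to 1.18 (without DSS-5) for Pigr over Igha, 0.048 to 0.197 for Jchain over Igha, −0.11 to −0.02 for Igkc over heavy chains, −0.18 to 0.34 for Pigr over epithelial markers and −0.40 to 0.081 for Igha over plasma cell markers. From raw counts the IgA, IgG and IgM shares differed by 7.44, −7.05 and −0.018 points. With the median over markers, Pigr over epithelium differed by 0.0024 and Igha over plasma cells by 0.013.

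Replicate numbers did not pair the mice: deviations of same-numbered mice correlated at −0.25, −0.14, −0.0043, −0.16 and 0.29. With the replicate block 0 genes were called, and the IgG share differed by −10.1 points (exact sign-flip permutation p = 0.125). With 5 pairs the smallest exact sign-flip p is 0.0625, so no share or ratio could pass 0.05 under the block.

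Among the members, Ighg1 and Ighg3 had the fewest counts. Leaving single mice out of the gene lists was chosen after seeing the data; without DSS-1, 14 of 15 B cell markers turned higher. With 5 mice a group and SE near 0.5 on the log2 scale, differences of the size seen for Igha, Igkc and Jchain could not be told from 0.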
